A study of Mus musculus with 3 samples.

Results

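Imprinted genes were followed in embryoid bodies (EBs) as these left the pluripotent state with or without a ceramide. The list held 34 gene symbols from imprinted regions of the mouse genome, and 33 of them were found by name among the 55487 genes of the expression table. Of these 33, 30 had at least 10 counts in at least 1 library and are called members in use below. They lay in 15 imprinted loci, and 11 of them are known to be expressed from the maternal chromosome, 18 from the paternal chromosome and Gnas from both, depending on the transcript. The symbol Nespas was not found by name. Its gene identifier, ENSMUSG00000086537.7, carried the name Gnasas1 in the table and is described apart from the members.

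The study asked how ceramides act on the first lineage choices of mouse embryonic stem (ES) cells. Feeder-independent E14K ES cells, a wild-type line derived from the 129P2/OlaHsd strain, were grown as EBs in hanging drops without leukemia inhibitory factor. The 3 libraries came from EBs given the vehicle DMSO and collected on day 3, EBs given DMSO and collected on day 4, and EBs given 30 μM of the cell-permeable short-chain C2 ceramide from day 3 and collected on day 4. Each condition had 1 library of EBs from 1 cell line, so differences are given by size without a test, and the spread between cultures is unknown.

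Imprinted genes are transcribed mainly from the chromosome of a single parent, because DNA methylation set in the egg or the sperm marks a control region of each locus and is kept through the divisions of the embryo. Many of them act on growth, with paternally expressed genes such as Igf2 tending to promote it and maternally expressed genes such as Igf2r, Grb10, Cdkn1c and Phlda2 tending to restrain it. Many are strongly expressed in the placenta and in growing fetal tissues. The parent of origin was not measured here. The cells come from an inbred strain and the tables give 1 value per gene, so the words maternal and paternal below are the known pattern of each gene and not a result.

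Levels are given as TPM, a share of all transcripts that is corrected for transcript length and sums to the same total in every library. The libraries held 33619197 (DMSO day 3), 35078820 (DMSO day 4) and 35290094 counts (C2 ceramide). Differences are log2 ratios of TPM with the 95% counting interval in brackets, an exact interval that describes counting error only. A gene is called higher or lower when its TPM ratio was above 2 or below 0.5. Ratios with DMSO day 4 in them share that library, so a value that was high there by itself would raise the first ratio and lower the second.

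The 30 members in use spanned a wide range of levels. On DMSO day 4 the most abundant were Gnas at 568.1 TPM, Phlda2 at 271.0 TPM, Snrpn at 249.9 TPM and Mest at 166.8 TPM. At the other end, Rtl1, Kcnq1ot1 and Zim1 did not pass 0.327 TPM in any library. In all, 15 members reached 10 TPM in at least 1 library, and 22 had at least 100 counts in every library. The summed level of the members was 1235 and 1699 TPM in the DMSO EBs of days 3 and 4 and 1354 TPM in C2 ceramide EBs.

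**Figure D1:**
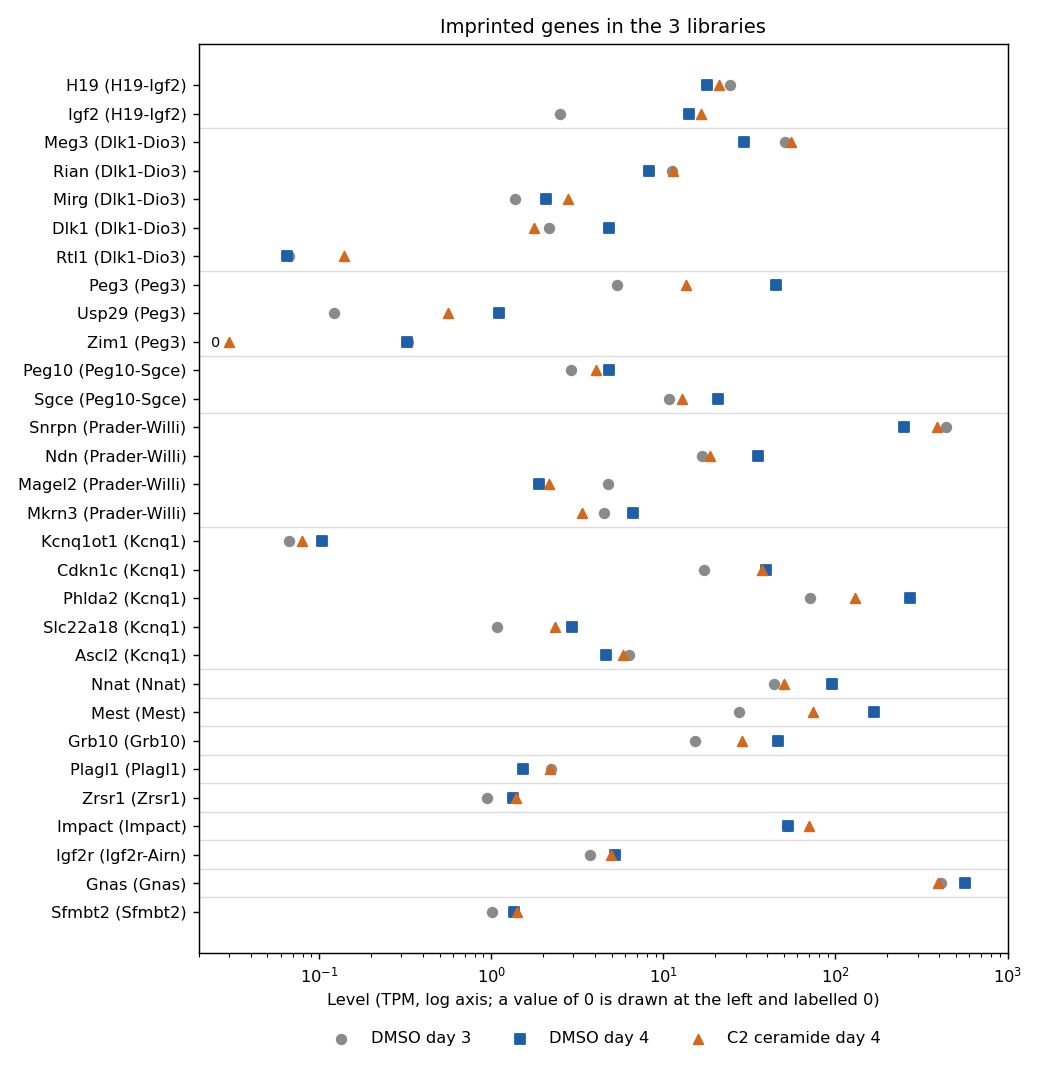
TPM of the 30 members in use, on a log axis, with 1 point for each library and the locus in brackets. Peg3, Mest, Phlda2 and Grb10 are lowest on DMSO day 3 and highest on DMSO day 4, with C2 ceramide between, while Meg3, Snrpn and Rian are lowest on DMSO day 4.

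Between DMSO day 3 and DMSO day 4, 11 of the 30 members were called higher and 1 was called lower. This is 36.7% and 3.33% of the members, against 12.8% and 9.45% of the 17655 genes in use. Among genes that reached 100 counts in any library, 11 of 26 members and 6.89% of all genes were called higher. The median log2 ratio of the members was 0.58, and that of all genes in use was 0.05. The 11 were Igf2, Dlk1, Peg3, Usp29, Ndn, Cdkn1c, Phlda2, Slc22a18, Nnat, Mest and Grb10, and Magel2 was the member called lower.

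With C2 ceramide on day 4, 5 members were called lower than with DMSO on day 4 and 1 was called higher. These are 16.7% and 3.33% of the members, against 12.3% and 9.97% of the genes in use, so the share called lower was near that of all genes. The 5 were Dlk1, Peg3, Phlda2, Mest and Zim1, and the member called higher was Rtl1, with 13 and 28 counts. The median log2 ratio was -0.16 for the members and -0.03 for all genes in use.

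Against DMSO day 3, C2 ceramide EBs had 8 members called higher and 2 called lower, 26.7% and 6.67% of the members, against 11.2% and 9.39% of the genes in use. The 8 were Igf2, Mirg, Rtl1, Peg3, Usp29, Cdkn1c, Slc22a18 and Mest, and the 2 were Magel2 and Zim1. The call of Mirg ended in counts per library total, at a log2 ratio of 0.84, and those of Mirg and Rtl1 ended with 0.1 TPM added, which left 6 members higher.

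**Figure D2:**
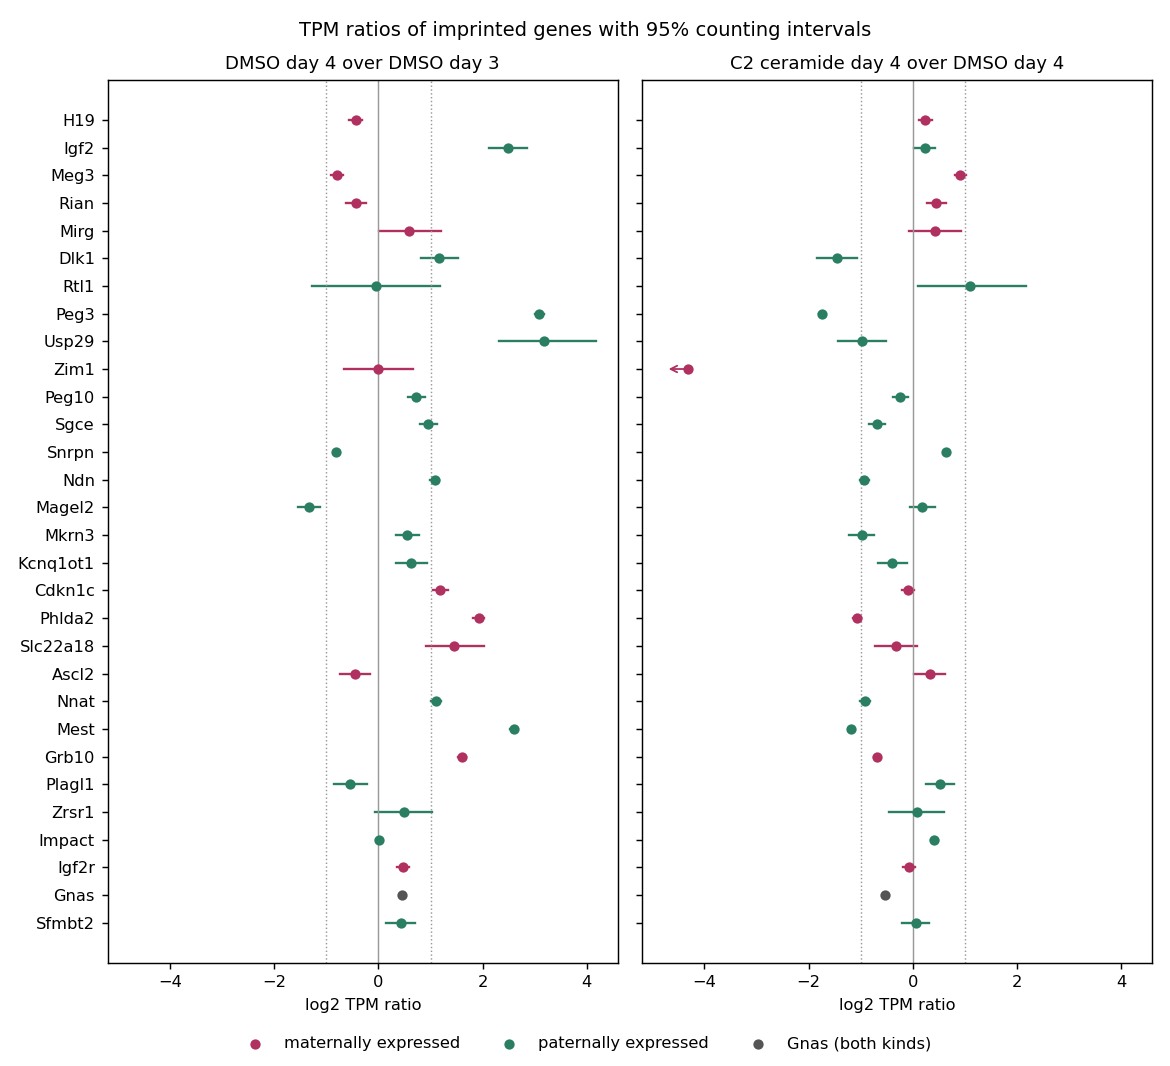
log2 TPM ratio of each member in use, with its 95% counting interval, for DMSO day 4 over DMSO day 3 (left) and C2 ceramide day 4 over DMSO day 4 (right). Colours give the known parental expression, dotted lines mark the 2-fold thresholds, and the arrow for Zim1 stands for a bound of 19.8-fold, because it had 0 counts with C2 ceramide. Peg3 is at 3.08 on the left and at -1.74 on the right, whereas Igf2 is at 2.48 and 0.23.

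The genes of the EBs that mark other cell types moved between the same libraries. The summed level of 7 primitive streak and mesoderm markers was 32.1 TPM on day 3 and 435.3 TPM on day 4 in DMSO EBs, against 29.8 TPM in C2 ceramide EBs, with all 7 higher on DMSO day 4 than on day 3 and all 7 lower with C2 ceramide. The summed level of 6 pluripotency markers was 8934 TPM, 5108 TPM and 9448 TPM in the same order. Dppa5a alone held 6353, 3735 and 7352 TPM of these sums. Of the 6, 5 had a ratio below 1 between the DMSO days and above 1 with C2 ceramide over DMSO on day 4. Fgf5 went the other way, at 176.5, 253.1 and 86.6 TPM. With C2 ceramide 2 of the 6 were called higher than DMSO day 4, and 1, Fgf5, was called lower. Of 7 visceral endoderm markers, 6 were higher on DMSO day 4 and 5 were lower with C2 ceramide, at summed levels of 3.57, 15.7 and 4.51 TPM, with Afp, Ttr, Apoa1, Apob and Hnf4a below 1 TPM in every library and Rbp4 alone at 11.4 TPM on DMSO day 4. The neural markers summed to 11.1, 6.28 and 20.1 TPM and the fibroblast markers to 3.49, 3.58 and 14.2 TPM. With C2 ceramide over DMSO on day 4, 4 of 6 neural and 3 of 6 fibroblast markers were called higher. Map2 and Elavl3 had log2 ratios of -0.60 and -0.53 there, and the fibroblast marker Postn was called lower. In C2 ceramide EBs, Tubb3 held 16.5 TPM of the neural sum, and Col1a2 and Dcn held 5.93 and 4.25 TPM of the fibroblast sum. Of all genes in use, 12.8% were called higher and 9.45% lower between the DMSO days. With C2 ceramide over DMSO on day 4 these shares were 9.97% and 12.3%. The trophoblast markers summed to 29.2, 41.0 and 45.4 TPM, of which Tfap2c alone held 20.4, 27.0 and 33.4 TPM. Of the 6 in use, 2 were called higher and 3 lower between the DMSO days. With C2 ceramide over DMSO on day 4, 2 were called higher and 1 lower. Cdx2, called lower there, was at 0.945, 7.68 and 2.79 TPM. Plac1 and Gcm1, called higher there, had 17, 4 and 91 counts and 39, 0 and 13 counts. The trophoblast markers Elf5 and Prl3d1 had at most 6 counts. The part of these cell types in the members' levels was not tested, and in whole EBs fewer cells of a type and less RNA per cell cannot be told apart.

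The Peg3 locus gave the steepest difference between the DMSO libraries. Peg3, a paternally expressed zinc finger protein (chr7:6703892-6730431, minus strand, GRCm38), was at 5.36 and 45.4 TPM in the DMSO EBs of days 3 and 4 and 13.6 TPM in C2 ceramide EBs. Its log2 ratio was 3.08 [3.00, 3.17] between the DMSO days and -1.74 [-1.80, -1.68] with C2 ceramide on day 4, from 1229, 10176 and 2950 counts. Peg3 thus stood 8.47-fold higher on DMSO day 4 than on day 3, and C2 ceramide EBs lay between the DMSO libraries.

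Usp29, a ubiquitin-specific protease gene that is also paternally expressed, starts on the opposite strand at chr7:6730578-6967219. It was low, at 0.122, 1.10 and 0.563 TPM, but was 9.04-fold higher on DMSO day 4 than on day 3, with 12 and 112 counts. This is a log2 ratio of 3.18 [2.32, 4.17], which fell to 0.91 with 1 TPM added. With C2 ceramide its log2 ratio to DMSO day 4 was -0.97 [-1.43, -0.52], just short of the threshold. Zim1, the maternally expressed zinc finger gene next to Peg3, behaved differently. It was at 0.327 and 0.323 TPM in the DMSO libraries, from 31 and 59 counts, and had 0 counts with C2 ceramide, which places it at least 19.8-fold lower than DMSO day 4 against a floor of 3 counts. Its TPM were alike in the DMSO libraries although its counts were not, so its ratio between them depends on the unit.

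The annotated starts of Peg3 and Usp29 are 146 bases apart, and both genes were called higher on DMSO day 4 than on day 3. The sequence between the starts is shown because it is the stretch they share. It was read from the RefSeq promoter table of GRCm38.p6 at chr7:6730432-6730577, on the plus strand, and runs from the start of Peg3 to that of Usp29, with the 5 CG dinucleotides, where mammalian DNA is methylated, in capitals.
Peg3-Usp29: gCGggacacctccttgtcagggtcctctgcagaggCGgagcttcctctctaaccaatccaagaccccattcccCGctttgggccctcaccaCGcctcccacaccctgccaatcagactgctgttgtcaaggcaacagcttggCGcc

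The other divergent pair of the list was Sgce and Peg10, whose starts are 98 bases apart on chromosome 6. Sgce, which encodes epsilon-sarcoglycan, was at 10.7 TPM on day 3 and 20.8 TPM on day 4 in DMSO EBs, against 12.9 TPM in C2 ceramide EBs. Peg10, a retrotransposon-derived gene needed in the placenta, was at 2.91, 4.82 and 4.08 TPM. Both were highest on DMSO day 4, with log2 ratios to day 3 of 0.96 [0.79, 1.13] for Sgce and 0.73 [0.57, 0.88] for Peg10, below the 2-fold threshold. With C2 ceramide the log2 ratio to DMSO day 4 was -0.69 [-0.85, -0.54] for Sgce and -0.24 [-0.38, -0.10] for Peg10.

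Mest, a paternally expressed gene of the hydrolase family that is known as a marker of mesoderm, was at 27.6 and 166.8 TPM in the DMSO EBs of days 3 and 4 and 73.8 TPM in C2 ceramide EBs. The log2 ratio was 2.59 [2.52, 2.67] between the DMSO days and -1.18 [-1.23, -1.13] with C2 ceramide on day 4. C2 ceramide EBs were still 2.67-fold above DMSO day 3. Mest overlaps Copg2 on the other strand, and the library kit does not keep strand, so reads of the overlap cannot be told apart.

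The transcript table placed nearly all of Mest at a single start. The transcript ENSMUST00000163949.8, which begins at position 30738050 of chromosome 6, was at 24.95, 154.1 and 66.5 TPM and made up 90.3%, 92.4% and 90.1% of the gene. The 5 annotated transcripts that begin further upstream were at 0 TPM in every library. The downstream start is the one known to be imprinted. The 250 bases before the used start (chr6:30737800-30738049, plus strand) and before the nearest upstream start in the table (chr6:30733256-30733505, plus strand) are given to show how they differ, with CG in capitals. The used one held 14 CG dinucleotides and the unused one 7, where the median of all 32851 promoter windows was 6.
Mest used start: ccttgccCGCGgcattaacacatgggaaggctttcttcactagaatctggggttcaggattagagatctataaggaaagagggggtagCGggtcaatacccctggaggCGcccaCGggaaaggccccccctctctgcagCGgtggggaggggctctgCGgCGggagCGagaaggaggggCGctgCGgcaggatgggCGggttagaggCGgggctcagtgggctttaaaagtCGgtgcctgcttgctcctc
Mest unused start: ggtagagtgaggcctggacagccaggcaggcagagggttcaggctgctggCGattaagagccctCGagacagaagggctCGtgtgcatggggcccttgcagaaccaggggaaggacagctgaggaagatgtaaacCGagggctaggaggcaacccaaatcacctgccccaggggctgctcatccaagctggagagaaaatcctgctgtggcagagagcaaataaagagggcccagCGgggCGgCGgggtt
The letters TGCCGC, the core that the imprint keeper ZFP57 recognises when methylated, were found 2 times in the used window and not in the other, counting both strands. Of all windows, 8.68% held these letters, and of 40 windows of 26 members, 5 did (12.5%). The other member windows with a match belonged to the second, overlapping window of Mest, to Zim1, Plagl1 and Meg3.

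Grb10 encodes an adaptor protein that restrains insulin and IGF receptor signalling and is maternally expressed in most tissues. It was at 15.2 TPM on day 3 and 46.3 TPM on day 4 in DMSO EBs, against 28.8 TPM in C2 ceramide EBs. The log2 ratios were 1.60 [1.53, 1.68] between the DMSO days and -0.68 [-0.74, -0.63] with C2 ceramide on day 4. Both day 4 libraries were above day 3, and C2 ceramide lay between the DMSO libraries.

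Of Grb10 transcripts, ENSMUST00000093321.11 from the upstream start at position 12037401 of chromosome 11 was at 13.4, 42.7 and 25.8 TPM. The 3 transcripts from the downstream starts, where the paternal transcript of neurons begins, summed to 0.305, 0.276 and 0.903 TPM but to 41.2, 38.1 and 4.42 counts, so no direction is given for them. The 250 bases before the upstream start (chr11:12037421-12037670, minus strand) held 40 CG dinucleotides, more than 98.7% of all promoter windows. Those before 1 of the downstream starts, at position 12027971 (chr11:12027972-12028221, minus strand), held 8. The downstream starts reach to position 12026324, and no window of the others is shown. The window shown is thus not necessarily that of the paternal transcript. Both are printed 5′ to 3′ on the strand of the gene to set a CG-rich used start beside a little-used one.
Grb10 upstream start: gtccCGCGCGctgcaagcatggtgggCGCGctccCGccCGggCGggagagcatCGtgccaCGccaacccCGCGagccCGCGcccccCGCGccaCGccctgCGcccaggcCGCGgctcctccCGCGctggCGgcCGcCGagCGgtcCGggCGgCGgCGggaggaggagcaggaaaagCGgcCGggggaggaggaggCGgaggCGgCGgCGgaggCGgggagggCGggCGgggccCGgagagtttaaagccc
Grb10 downstream start: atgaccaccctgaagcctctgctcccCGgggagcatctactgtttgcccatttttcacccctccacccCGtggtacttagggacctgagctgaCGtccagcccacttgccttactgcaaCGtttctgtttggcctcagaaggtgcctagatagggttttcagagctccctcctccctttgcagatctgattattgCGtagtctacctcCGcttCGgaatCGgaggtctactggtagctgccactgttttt

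**Figure D3:**
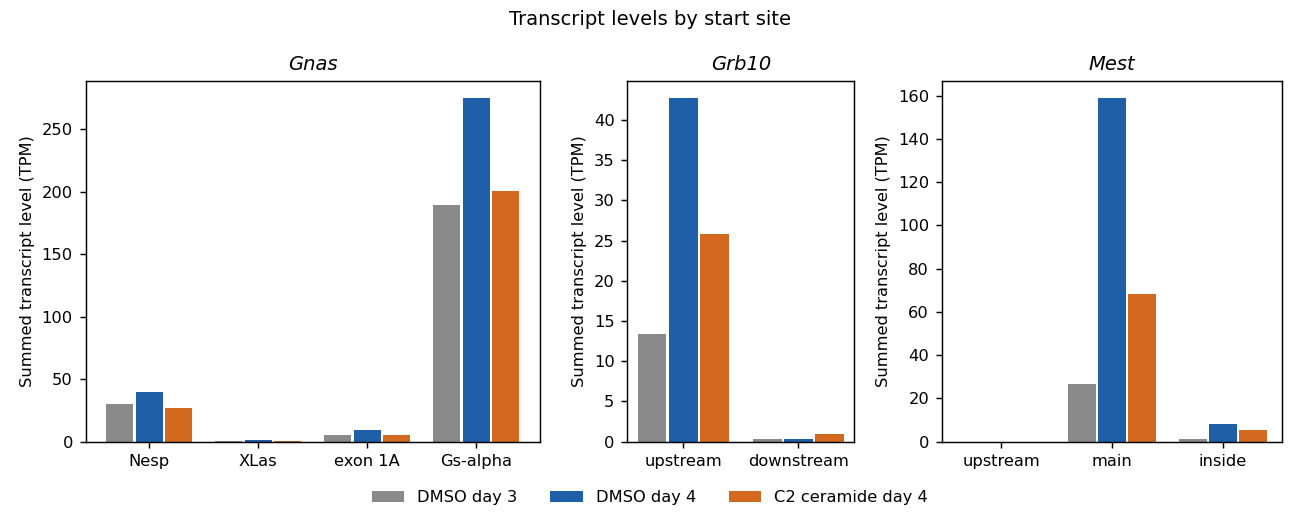
Summed TPM of the transcripts of Gnas, Grb10 and Mest by annotated start site, with 1 bar for each library and no error bars because each condition had 1 library. For Gnas the 4 starts used for the known products are drawn, for Grb10 the upstream and downstream starts, and for Mest all starts upstream of the main one, the main one and those inside the gene. Upstream Mest starts are at 0 TPM, and the upstream Grb10 start carries 42.7 TPM on DMSO day 4 against 0.276 TPM for the downstream starts.

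Gnas gives rise to several products with different imprinting. The whole gene was at 412.6 and 568.1 TPM in the DMSO EBs of days 3 and 4 and 393.0 TPM in C2 ceramide EBs, and its log2 ratios were 0.46 [0.43, 0.49] and -0.53 [-0.56, -0.50]. Transcripts from the start of the G protein subunit Gsα, which most tissues express from both parental copies, summed to 189.7, 274.8 and 200.9 TPM. Transcripts from the maternal Nesp start summed to 30.1, 39.8 and 26.6 TPM. Those from the paternal XLas start were low, at 0.874, 1.24 and 0.313 TPM, and those from exon 1A, also paternal, were at 5.53, 9.48 and 5.46 TPM. With C2 ceramide over DMSO on day 4 the log2 ratio was -1.99 for XLas. It was -0.58 for Nesp, -0.80 for exon 1A and -0.45 for Gsα. Each of these 4 starts was highest on DMSO day 4. A short transcript that begins inside the gene, ENSMUST00000238267.1, took 173.5, 232.4 and 150.5 TPM, and its reads are shared with the longer products, so the split between starts is an estimate. Gnas, Snrpn, Igf2, Cdkn1c and Sfmbt2 also overlap other annotated genes, to which part of their counts could belong. The antisense gene Gnasas1, matched by identifier to Nespas, was at 2.76, 1.97 and 1.53 TPM and overlaps the Nesp end of Gnas.

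In the locus of H19 and Igf2 the neighbours did not move together. Igf2, the paternally expressed fetal growth factor (chr7:142650766-142666816, minus strand), was at 2.52 TPM on day 3 and 14.03 TPM on day 4 in DMSO EBs, against 16.5 TPM in C2 ceramide EBs. Its log2 ratio was 2.48 [2.13, 2.85] between the DMSO days and 0.23 [0.03, 0.43] with C2 ceramide on day 4, from 77, 418 and 407 counts. The counts per library total put the second ratio at -0.05, so no direction is given for it. Over DMSO day 3, Igf2 was 5.58-fold higher on DMSO day 4 and 6.55-fold higher with C2 ceramide. H19, the maternally expressed noncoding RNA that shares enhancers with Igf2, was at 24.2, 17.9 and 21.1 TPM, with log2 ratios of -0.43 [-0.56, -0.31] and 0.24 [0.11, 0.36].

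The Igf2 transcript with the highest TPM, ENSMUST00000105935.7 from the most upstream start at position 142666816, was at 1.12, 9.76 and 11.7 TPM, which is 44.3%, 69.6% and 70.9% of the gene. By counts its share was 15.4%, 25.5% and 31.9%, and the starts between positions 142656018 and 142657496 held more, at 48.8%, 52.5% and 39.5%, so the leading start depends on the unit. The transcript ENSMUST00000097936.8, with a downstream start at position 142657466, was at 0, 2.20 and 0.759 TPM. The main H19 transcript, ENSMUST00000136359.7, was nearly level at 13.6, 12.6 and 12.2 TPM. Its share of H19 was 56.1%, 70.5% and 57.6%.

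The receptors and adaptors that act on the same growth pathway are also members. Igf2r, the maternally expressed receptor that clears IGF2, was at 3.76, 5.23 and 4.97 TPM, with log2 ratios of 0.48 [0.36, 0.59] and -0.07 [-0.18, 0.03]. The antisense RNA Airn, which overlaps Igf2r, had 0, 2 and 6 counts and was not in use. Plagl1, a paternally expressed zinc finger factor, was at 2.22, 1.53 and 2.19 TPM, but its counts were 144, 211 and 232. Its log2 ratio between the DMSO days was -0.54 in TPM and up to 0.49 in scaled counts, so its direction depends on the unit. Its main transcript, ENSMUST00000121646.7, was at 0.985, 1.44 and 1.52 TPM.

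In the Kcnq1 locus the members are 4 maternally expressed genes and the paternal noncoding RNA that silences them on the other copy. Phlda2, a restrainer of placental growth (chr7:143501545-143503150, minus strand), was at 71.5 and 271.0 TPM in the DMSO EBs of days 3 and 4 and 129.3 TPM in C2 ceramide EBs, with log2 ratios of 1.92 [1.82, 2.02] and -1.07 [-1.15, -0.99]. Cdkn1c, an inhibitor of cyclin-dependent kinases at chr7:143458339-143461050, was at 17.3, 39.5 and 37.2 TPM, with log2 ratios of 1.19 [1.04, 1.34] and -0.09 [-0.20, 0.03]. Both were higher on DMSO day 4 than on day 3, but with C2 ceramide only Phlda2 of these genes passed the threshold against DMSO day 4.

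Slc22a18, a membrane transporter, was at 1.07, 2.95 and 2.35 TPM, from 37, 118 and 94 counts. Its difference between the DMSO days lay in the transcript ENSMUST00000105917.2, at 0, 1.80 and 0.826 TPM, while ENSMUST00000052348.11 was at 0.854, 1.08 and 1.45 TPM. Ascl2, a transcription factor of the trophoblast lineage, was at 6.32, 4.65 and 5.80 TPM, with log2 ratios of -0.44 [-0.73, -0.16] and 0.32 [0.03, 0.62]. Kcnq1ot1, the long paternal RNA, was at 0.067, 0.104 and 0.079 TPM, from 162, 255 and 193 counts spread over a very long transcript. Its log2 ratios were 0.63 [0.34, 0.93] and -0.40 [-0.67, -0.12], and it overlaps Kcnq1 on the other strand.

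In the Dlk1-Dio3 locus 4 of 5 members had a ratio above 1 with C2 ceramide over DMSO on day 4, all but Dlk1. Of the 17655 genes in use, 8206 had a ratio above 1. The maternal noncoding RNA Meg3 (chr12:109541001-109571726, plus strand) was at 50.9 TPM on day 3 and 29.4 TPM on day 4 in DMSO EBs, against 55.3 TPM in C2 ceramide EBs, with log2 ratios of -0.79 [-0.90, -0.68] and 0.91 [0.81, 1.02]. Rian, the snoRNA host next to it, was at 11.2, 8.26 and 11.3 TPM, with log2 ratios of -0.43 [-0.63, -0.24] and 0.45 [0.27, 0.64]. For both, C2 ceramide EBs were close to DMSO day 3, with log2 ratios to that library of 0.12 for Meg3 and 0.02 for Rian. Mirg, the microRNA host at the end of the locus, was at 1.38, 2.08 and 2.79 TPM from 42, 62 and 79 counts, and did not share the low value on DMSO day 4. Its log2 ratio with C2 ceramide over DMSO on day 4 was 0.42 [-0.08, 0.93], an interval that includes 0.

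The paternal genes of the locus, Dlk1 and Rtl1, differed from each other. Dlk1, a transmembrane protein related to the Notch ligands (chr12:109452823-109463336, plus strand), was at 2.15 and 4.83 TPM in the DMSO EBs of days 3 and 4 and 1.77 TPM in C2 ceramide EBs, with log2 ratios of 1.17 [0.81, 1.53] and -1.45 [-1.84, -1.07]. It was highest in the library where Meg3 was lowest. Rtl1, a retrotransposon-derived gene of the placenta, was at 0.067, 0.065 and 0.139 TPM. Its 13, 13 and 28 counts gave a log2 ratio of 1.10 [0.10, 2.17] with C2 ceramide over DMSO on day 4. This was the only call above 2-fold in that comparison, and it was lost when 0.1 TPM was added. Rtl1 lies on the minus strand between Meg3 and Rian, which are on the plus strand. The library kit does not keep strand, so any plus-strand RNA of that stretch would be counted as Rtl1. The 66 microRNA genes and 23 snoRNA genes listed between Dlk1 and the end of Mirg had 0 counts in all 3 libraries. These were SMART-Seq v4 cDNA libraries with no separate small RNA library, so the 0 counts do not show that the small RNAs were absent.

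The genes of the Prader-Willi locus, all paternally expressed, also differed among themselves. Snrpn, which encodes the splicing protein SmN, was at 441.6 TPM on day 3 and 249.9 TPM on day 4 in DMSO EBs, against 389.2 TPM in C2 ceramide EBs, with log2 ratios of -0.82 [-0.86, -0.79] and 0.64 [0.61, 0.67]. Ndn, which encodes the MAGE family protein necdin, went the other way, at 16.7, 35.3 and 18.5 TPM and log2 ratios of 1.08 [0.99, 1.17] and -0.93 [-1.02, -0.84]. Snrpn was the lowest on DMSO day 4 and Ndn the highest, and the log2 ratios of C2 ceramide to DMSO day 3 were -0.18 for Snrpn and 0.15 for Ndn.

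Magel2, another MAGE gene, was at 4.77 TPM on DMSO day 3 and at 1.90 and 2.15 TPM in the day 4 libraries. Its log2 ratio to DMSO day 3 was -1.33 [-1.54, -1.12] with DMSO and -1.15 [-1.35, -0.94] with C2 ceramide. It was the only member below 0.5 of the DMSO day 3 level in both day 4 libraries. Mkrn3, a ubiquitin ligase gene, was at 4.54, 6.68 and 3.38 TPM, and its log2 ratio with C2 ceramide on day 4, -0.98 [-1.22, -0.75], was just short of the threshold. All Snrpn counts were assigned to the transcript ENSMUST00000059305.16 from the start at position 60005111 of chromosome 7, and the upstream start at position 60140219 was at 0 TPM.

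The members that stand alone at their locus completed the picture. Nnat, a paternally expressed membrane protein of neurons that lies inside an intron of Blcap, was at 44.0 and 95.1 TPM in the DMSO EBs of days 3 and 4 and 50.1 TPM in C2 ceramide EBs, with log2 ratios of 1.11 [1.01, 1.21] and -0.92 [-1.02, -0.83]. Impact, a regulator of translation, was at 52.2, 52.7 and 70.2 TPM. In TPM it was level between the DMSO days and 1.33-fold higher with C2 ceramide over DMSO on day 4. Scaled counts put its log2 ratio between the DMSO days as low as -0.17, so the sign of that ratio depends on the unit. Zrsr1, a splicing factor gene inside Commd1, was at 0.947, 1.33 and 1.40 TPM, and Sfmbt2, a Polycomb protein gene active in the placenta, was at 1.002, 1.35 and 1.40 TPM. Neither passed 2-fold in any comparison. Peg13 had 0 counts in all libraries, which allows up to 3 counts or 0.0892 CPM (counts scaled to the library total) on DMSO day 3, and Rasgrf1 had 1 count, with C2 ceramide.

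By parental expression, the groups overlapped widely. Between the DMSO days, 4 of 11 maternal members and 7 of 18 paternal members were called higher, 36.4% and 38.9% against 12.8% of all genes in use, and the median log2 ratios were 0.48 and 0.68. With C2 ceramide on day 4, 2 of 11 maternal members (Phlda2 and Zim1) and 3 of 18 paternal members (Dlk1, Peg3 and Mest) were called lower, 18.2% and 16.7%, near the 12.3% of all genes in use. The median log2 ratios of this comparison were -0.07 for maternal and -0.32 for paternal members, within values that ran from 0.91 for Meg3 down to the 0 counts of Zim1 and from 1.10 for Rtl1 to -1.74 for Peg3. The 5 noncoding members had a median of -0.43 between the DMSO days and 0.42 with C2 ceramide, and the 25 coding members had 0.73 and -0.33. The noncoding medians are the values of Rian and Mirg. Together with Meg3 these lie in the single Dlk1-Dio3 locus, so the noncoding group is largely 1 locus.

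**Figure D4:**
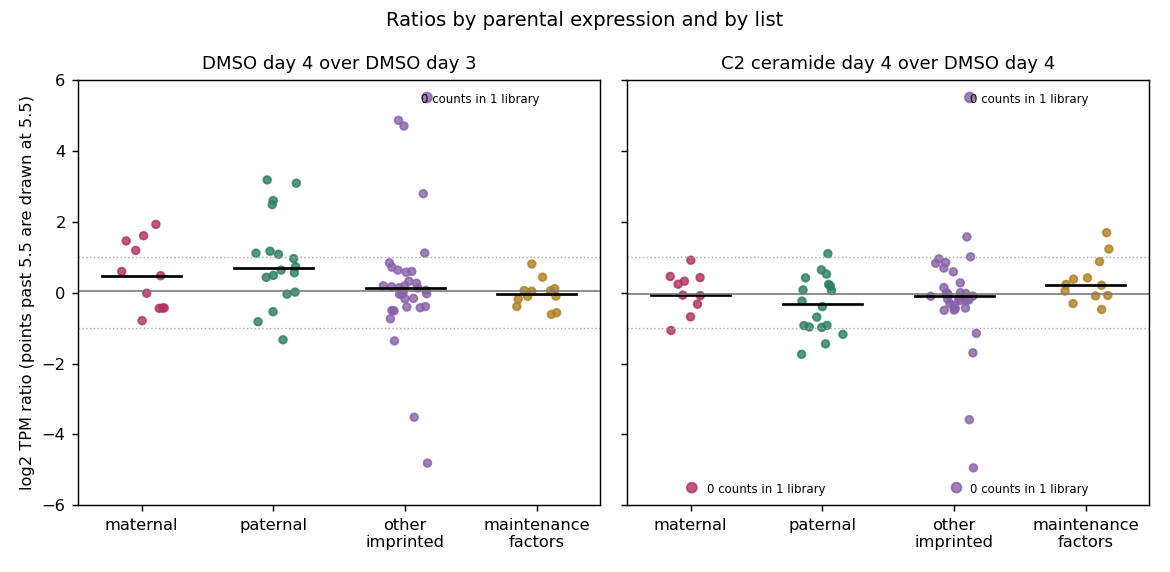
log2 TPM ratio of each gene in use for maternal members, paternal members, other imprinted genes and imprint maintenance factors, for DMSO day 4 over DMSO day 3 (left) and C2 ceramide day 4 over DMSO day 4 (right). Black bars are medians, the grey line is the median of all genes in use, dotted lines mark 2-fold, and genes with 0 counts in 1 library whose ratio passed 5.5 are drawn at 5.5. The medians of maternal and paternal members lie at 0.48 and 0.68 on the left and at -0.07 and -0.32 on the right.

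A further 40 imprinted genes were looked at as a list of their own. Of its 33 genes in use, 5 were called higher and 3 lower on DMSO day 4 than on day 3, 15.2% and 9.09% against 12.8% and 9.45% of all genes in use, with a median log2 ratio of 0.13. With C2 ceramide on day 4, 3 were called higher and 5 lower, 9.09% and 15.2% against 9.97% and 12.3%, and the median was -0.10. These shares were near those of all genes. Asb4, a ubiquitin ligase subunit gene near Peg10, was at 0.524 TPM on day 3 and 13.6 TPM on day 4 in DMSO EBs, against 0.442 TPM in C2 ceramide EBs, from 40, 1013 and 38 counts. This is a log2 ratio of -4.94 with C2 ceramide, much wider than that of Peg10 or Sgce. Ampd3, an AMP deaminase gene, was at 0.312, 0.558 and 0.172 TPM and Smoc1, a secreted calcium-binding protein gene, was at 2.97, 4.61 and 2.08 TPM. The most abundant gene of the list on DMSO day 4, Commd1, was level at 221.1, 243.1 and 226.9 TPM.

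The factors that keep imprints were all in use. None of the 12 passed 2-fold between the DMSO days, against 12.8% higher and 9.45% lower among all genes in use. The median log2 ratio was -0.03. With C2 ceramide on day 4, 2 of 12 (16.7%) were called higher and none lower, with a median of 0.22. Among all genes in use 9.97% were called higher and 12.3% lower, so 2 genes of so short a list are not far from that share. Zfp57, the zinc finger protein that binds methylated imprint control regions, was at 14.1 and 10.8 TPM in the DMSO EBs of days 3 and 4 and 25.3 TPM in C2 ceramide EBs, a log2 ratio of 1.23 over DMSO day 4. Zfp42, a pluripotency factor also tied to imprinted loci, was at 119.8, 78.2 and 252.1 TPM, which put its log2 ratio over DMSO day 4 at 1.69. Trim28, the corepressor that ZFP57 recruits and the most abundant of the list, was at 315.5, 293.0 and 344.1 TPM. The maintenance methyltransferase Dnmt1 was level at 53.5, 55.1 and 52.1 TPM. Methylation itself was not measured in these libraries.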

How the data were processed

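RNA of 3 mouse EB libraries, 1 per condition, was turned into cDNA with SMART-Seq v4 and into libraries with Nextera XT, which keep no strand. The authors aligned and quantified reads with DRAGEN 3.6.3 on GRCm38 and GENCODE release M 25, and deposited TPM values and expected counts (estimated, not normalized) for 55487 genes and 142699 transcripts. The authors' deposited TPM is corrected for transcript length and scaled to the same total in each library. Totals of 33619197 to 35290094 counts set the precision.

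Ratios of TPM were computed in Python 3.11.15 (NumPy 2.4.6, pandas 2.3.3, SciPy 1.17.1, Matplotlib 3.10.9). Values of 0 TPM were raised to 0.001. Genes in use had at least 10 counts in at least 1 library. Intervals are exact conditional (Clopper-Pearson) 95% intervals of rounded counts, shifted to the TPM ratio; PCR copies are counted as separate molecules. A fold against 0 counts is a bound against 3 counts. With 1 library per condition no test was run. Transcripts were grouped by starts at most 1500 bases apart. Promoter windows came from RefSeq (GRCm38.p6), 250 bases before each start. Ratios and intervals were tested on simulated data.

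Every member is named or given by its counts. In other gene lists, genes past 2-fold with C2 ceramide over DMSO on day 4 and at least 50 counts in 1 library are named. At most 6 a list are named in this way. The most abundant gene of each list is also named, and Dnmt1 was named after its values were seen. The cell type markers did not follow this rule. They are given mainly as sums and calls, and not every marker past 2-fold is named. Transcripts named have at least 10% of their gene and 1 TPM. The members and lists were chosen with earlier results of these data known. Alternatives were 0.1 or 1 TPM added, counts per library total, rounded counts scaled with edgeR 4.0.16 (TMM) or DESeq2 1.42.0 in R 4.3.3, other count filters and other thresholds. An alternative with members of 0 counts at their bound, and a filter of 100 counts in both libraries together, were chosen after seeing the data.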

Additional observations from a re-analysis of the deposited data

How the results depend on the processing

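No paired analysis was possible because each condition had 1 library, and no library could be left out. Between DMSO day 4 and day 3, 11 members were called higher and 1 lower; adding 1 TPM left 0 lower, a 1.5-fold threshold gave 3 lower, and a 4-fold threshold gave 4 higher and 0 lower. For C2 ceramide over DMSO on day 4, where 1 member was called higher and 5 lower, adding 0.1 or 1 TPM, a filter of 100 counts in 1 library or in both together, and a 4-fold threshold each left 0 higher, and no filter on counts gave 3. A 1.5-fold threshold gave 3 higher and 11 lower, and a 4-fold threshold gave 1 lower. The median of paternal members, -0.32, was -0.092 with no filter on counts. For C2 ceramide over DMSO day 3, with 8 higher and 2 lower, adding 1 TPM gave 4 and 0, a filter of 100 counts in 1 library or in both together left 1 lower, and a 4-fold threshold gave 2 and 1. In the other 97 of 117 alternative values of counts and medians the value stayed within 1.5 times the count, or within the median counting interval. No called ratio of a single member changed sign. Of 450 alternative values of single members, 62 left the counting interval. Ratios of Usp29, Zim1, Rtl1 and Mirg rest on at most 112 counts in each library.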

Other observations

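Beyond the imprinted genes, genes of the insulin-like growth factor pathway were followed because Igf2, Igf2r and Grb10 act in it. All 12 were in use, with 2 called higher and 2 lower on DMSO day 4 than on day 3, and 2 higher and 2 lower with C2 ceramide than in the DMSO EBs of that day. Each count is 16.7% of the list. Among all genes in use, 12.8% were called higher and 9.45% lower between the DMSO days. With C2 ceramide on day 4 the shares of all genes were 9.97% and 12.3%, so the list was near them. Igfbp4, a binding protein that holds IGFs in the medium, was at 7.66 TPM on day 3 and 72.8 TPM on day 4 in DMSO EBs, against 10.3 TPM in C2 ceramide EBs. Igfbp3, the main carrier of IGFs in serum, was at 48.5, 176.0 and 79.0 TPM. Igfbp5 had 37, 21 and 83 counts, and Irs1, a docking protein of the receptor, was at 0.593, 0.123 and 0.282 TPM. Igfbp2 was the most abundant of the list, at 893.2, 708.0 and 662.8 TPM.

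Next to members, 2 noncoding genes chosen after their values were seen are given as values. Snhg14, the long host RNA of the Prader-Willi locus, was at 16.4 and 5.72 TPM in the DMSO EBs of days 3 and 4 and 8.10 TPM in C2 ceramide EBs. B830012L14Rik, in the Dlk1-Dio3 locus, had 50, 26 and 67 counts.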
